A study of Mus musculus with 2 samples.

Results

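Open chromatin was described at 9 mouse genes for calcium/calmodulin-dependent kinases and for kinases of synaptic plasticity: Camk2a, Camk2b, Camk2d and Camk2g, Camk4, Camkk1 and Camkk2, Prkca and Prkcz. They are 9 of 21884 protein-coding genes with a unique symbol in GENCODE M21, and they were chosen by name and function. Each locus was the annotated gene with 20 kb on either side, on mm10. The data are 2 DNase-seq libraries of hippocampus, labelled replicates 1 and 2 of a single group. The mice were 14-day-old B6CASTF1/J females, a cross between C57BL/6J and CAST/EiJ, and the labels of each library name 3 of them. The labels call the libraries biological replicates and give them different biosamples but 1 donor identifier. Whether separate animals gave them is not stated, so the spread between them may be technical. DNase-seq maps the DNA that the nuclease DNase I can reach. A peak is a stretch with many cuts, and a footprint is a short protected stretch inside such a region, as a bound protein can leave.

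Calcium that enters a neuron through NMDA receptors binds calmodulin, and calcium/calmodulin switches on the CaM kinases. Camk2a, Camk2b, Camk2d and Camk2g encode the alpha, beta, delta and gamma subunits that build the CaMKII holoenzyme, and the alpha subunit is needed for hippocampal long-term potentiation. Camkk1 and Camkk2 encode upstream kinases that phosphorylate and activate CaMKIV, the product of Camk4, which phosphorylates the transcription factor CREB in the nucleus. Prkca encodes a conventional protein kinase C, activated by calcium and diacylglycerol. Prkcz encodes the atypical protein kinase C zeta from its 5′ promoter and, from an internal promoter in brain, PKMzeta, a form without the regulatory part that is studied for its role in lasting potentiation.

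The first sequences shown are those upstream of the only promoters of the 9 genes that held a full cyclic AMP response element (CRE, TGACGTCA, the site that CREB binds) within 500 bp of a start. Sequences are those of the C57BL/6J reference, from RefSeq GRCm38.p6, printed 5′ to 3′. Capitals mark bases inside a footprint in both libraries, and a lower-case part of the CRE therefore lies outside the footprint of at least 1 library.
Prkcz internal promoter, chr4:155345773-155345880, minus strand: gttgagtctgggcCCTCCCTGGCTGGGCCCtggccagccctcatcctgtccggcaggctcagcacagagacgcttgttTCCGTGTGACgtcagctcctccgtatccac
Camk2d 5′ promoter, chr3:126596181-126596301, plus strand: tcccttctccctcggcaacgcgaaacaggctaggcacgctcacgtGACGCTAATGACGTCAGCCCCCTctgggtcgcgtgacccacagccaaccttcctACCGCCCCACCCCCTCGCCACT

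The CRE of Prkcz lay 17 to 24 bp upstream of the internal start, and 8 of its 8 bases were inside a footprint in replicate 1 and 4 of 8 in replicate 2. The CRE of Camk2d lay 61 to 68 bp upstream of the 5′-most start, with 8 of 8 bases inside a footprint in replicate 1 and 8 of 8 in replicate 2. Of 54213 protein-coding transcript starts, 1.31% had a full CRE in the 108 bp upstream and 1.40% in the 121 bp upstream, the lengths of the windows printed above. The Camk2d start itself is that of a noncoding transcript. With footprints widened by 5 bp on either side, unlike the base counts above, a full CRE in a promoter footprint of both libraries was found at 484 genes, or 2.21% of all. CRE is its own reverse complement, so the search on both strands finds the same sites. A match of letters is not evidence of a bound protein.

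The second set shows, for each member except Camk2a and Camk4, the top-ranked distal peak among those that held footprints of both libraries outside untranslated regions. Peaks found in both libraries were ranked within a gene by the smaller of their 2 percentiles of signal, so the top-ranked peak is not always the strongest in each library. The bases shown are those common to the peak of both libraries, and for Camkk2 the first 300 of a longer peak. Distal means over 1 kb from every annotated transcript start. Capitals again mark bases in footprints of both libraries.
Camk2b intron, chr11:6030781-6031000, plus strand: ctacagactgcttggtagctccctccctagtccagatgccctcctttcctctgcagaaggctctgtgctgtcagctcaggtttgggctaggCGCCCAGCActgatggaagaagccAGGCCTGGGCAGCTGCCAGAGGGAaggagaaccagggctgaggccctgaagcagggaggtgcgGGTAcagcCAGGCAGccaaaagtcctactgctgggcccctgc
Camk2d intron, chr3:126764861-126765040, plus strand: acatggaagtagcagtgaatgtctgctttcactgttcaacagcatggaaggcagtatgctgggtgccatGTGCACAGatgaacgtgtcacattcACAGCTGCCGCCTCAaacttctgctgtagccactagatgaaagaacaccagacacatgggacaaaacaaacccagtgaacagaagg
Camk2g upstream, chr14:20798881-20799040, plus strand: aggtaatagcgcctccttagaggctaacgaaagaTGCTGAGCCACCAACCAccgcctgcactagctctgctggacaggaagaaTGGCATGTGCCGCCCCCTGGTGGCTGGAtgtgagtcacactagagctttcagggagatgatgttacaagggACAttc
Camkk1 downstream, chr11:73049441-73049620, plus strand: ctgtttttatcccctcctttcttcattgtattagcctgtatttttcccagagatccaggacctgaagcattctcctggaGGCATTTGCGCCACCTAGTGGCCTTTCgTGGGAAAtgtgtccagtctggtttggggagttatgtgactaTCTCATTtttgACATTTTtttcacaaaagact
Camkk2 intron, chr5:122770841-122771140, plus strand: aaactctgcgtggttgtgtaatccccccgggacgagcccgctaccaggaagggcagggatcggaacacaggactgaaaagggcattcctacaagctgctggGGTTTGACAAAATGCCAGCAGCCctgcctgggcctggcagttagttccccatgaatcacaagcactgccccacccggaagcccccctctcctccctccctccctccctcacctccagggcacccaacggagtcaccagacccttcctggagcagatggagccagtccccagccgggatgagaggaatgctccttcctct
Prkca intron, chr11:108023281-108023520, plus strand: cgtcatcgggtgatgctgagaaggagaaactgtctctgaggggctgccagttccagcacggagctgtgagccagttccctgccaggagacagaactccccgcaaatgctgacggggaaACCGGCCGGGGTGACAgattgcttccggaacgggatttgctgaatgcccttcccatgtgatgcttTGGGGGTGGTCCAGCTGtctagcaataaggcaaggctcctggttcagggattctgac
Prkcz downstream, chr4:155246721-155246940, plus strand: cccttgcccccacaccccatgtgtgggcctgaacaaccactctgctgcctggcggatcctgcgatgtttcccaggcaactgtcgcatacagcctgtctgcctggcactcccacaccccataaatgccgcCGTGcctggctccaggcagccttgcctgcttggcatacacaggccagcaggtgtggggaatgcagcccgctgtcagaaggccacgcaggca

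The Camk2b, Camk2d and Prkca sequences each have the symmetric E-box CAGCTG inside, or within 5 bp of, a footprint of both libraries. E-boxes bind basic helix-loop-helix factors. CAGCTG stood in 26.8% of all replicate 1 distal peaks of the 220-bp width of the Camk2b peak, 18.7% at the 180-bp width of the Camk2d peak and 28.8% at the 240-bp width of the Prkca peak. The Camk2g and Camkk1 sequences have a match to the consensus of CTCF, a factor that anchors chromatin loops. CTCF matches stood in 17.9% of replicate 1 distal peaks of 160 bp and 12.7% of those of 200 bp, the widths of the Camk2g and Camkk1 peaks in that library.

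All 9 members had a peak within 500 bp of at least 1 annotated start in both libraries, against 63.2% of protein-coding genes. Transcript starts of any type that lay within 500 bp of each other were joined into 1 promoter, which gave the members 43 alternative promoters. Of these, 14 had a peak in both libraries, 2 in replicate 1 only, 1 in replicate 2 only, and 26 in neither. Most annotated internal starts were therefore without a peak, while every gene kept at least 1 open promoter. Among the 23 promoters with a protein-coding transcript 10 were open in both libraries (43.5%), close to the background of 46.0% for such promoters. Among the 20 without a protein-coding transcript 4 were open in both libraries (background 9.83%). These values come from a mixture of cells, and more cells with an open site and a more open site per cell cannot be told apart.

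The open promoters divided by CpG content, with shares near those over all promoters of protein-coding genes. The CpG ratio is the number of CpG dinucleotides observed over that expected from base composition, within 500 bp of the starts. All 9 promoters of the members with a ratio of at least 0.6 were open in both libraries (background 91.2%), and 5 of 34 with a lower ratio (14.7%, background 16.0%). These 5 were Camk2a promoter 1 (0.283), Camk2b promoters 1 (0.478) and 3 (0.123), and Prkcz promoters 2 (0.451) and 5 (0.261), where promoters are numbered from the 5′ end of the gene. Camk2b promoter 1 has the same strongest peak as the CpG-rich promoter 2, so that peak counts for both. The promoter of Camk2a and the joined internal promoter of Prkcz, which holds the PKMzeta start, are thus CpG-poor and open. The Prkcz ratio is over a 2033-bp window around 5 joined starts, and the ratio around the PKMzeta start alone was not measured. Among the 26 promoters open in neither library the highest ratio was 0.473, and 25 of them had no base with a false discovery rate (FDR) under 0.05 for the cut rate in either library.

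**Figure D1:**
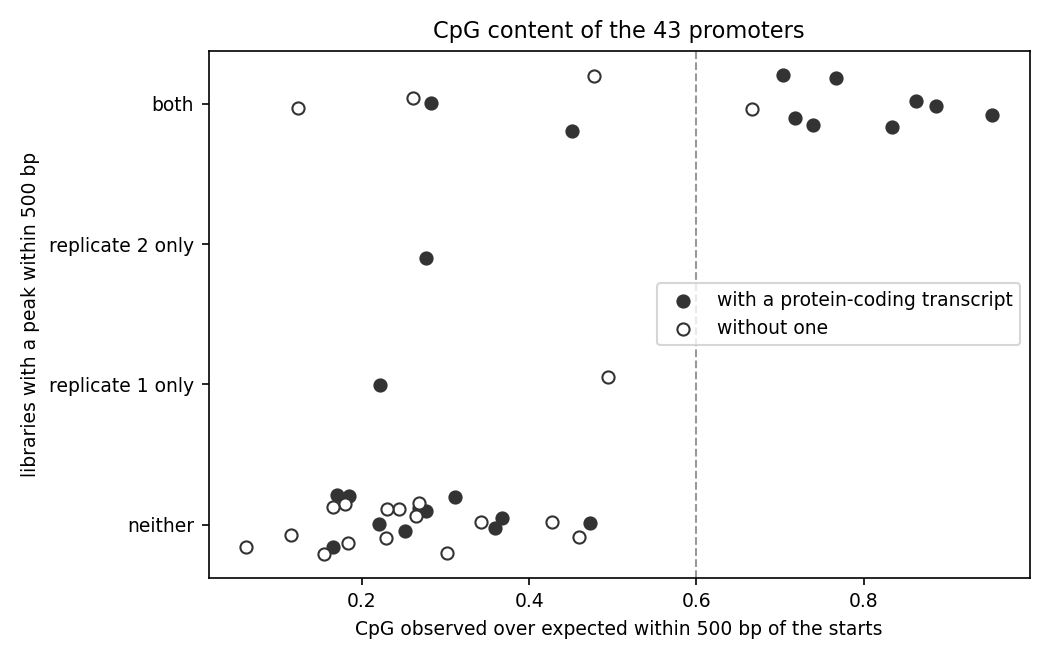
CpG observed over expected (x axis) of the 43 alternative promoters of the 9 genes, in rows by the libraries that had a peak within 500 bp; points are spread vertically for legibility, and filled points have a protein-coding transcript. All 9 promoters to the right of the dashed line at 0.6 are open in both libraries, and 5 of 34 to its left are. Over all promoters of protein-coding genes the shares are 91.2% and 16.0%.

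Signal is the authors' value per peak, in units whose scaling is not stated, and it was used for ranks within a library. The strongest promoter peak of the median member reached 5.14 in replicate 1 and 2.02 in replicate 2. Over all protein-coding genes with a promoter peak the medians were 5.62 and 2.52. The members' promoters were thus open but of middling strength. The median percentile of the members among those genes was 46.6 in replicate 1 and 42.0 in replicate 2.

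Among the CaMKII subunit genes, Camk2a (chr18:60925618-60988152) had 1 open promoter of 3, at the start of the full-length 489-residue form. Its peak reached 5.02 in replicate 1 and 2.45 in replicate 2, at the 46.0 and 48.9 percentiles. The internal Camk2a promoter 37936 bp into the gene, which starts short protein-coding transcripts of 189 to 200 residues, had no peak in either library. The nearest replicate 1 peak lay 14841 bp away. That promoter was the exception with FDR bases under 0.05, over 0.478% of its window in replicate 1.

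Camk2b (chr11:5969644-6066362) had an open 5′ promoter with a CpG ratio of 0.954, where 10 protein-coding transcripts start. It had 3.50 in replicate 1 and 1.00 in replicate 2. A noncoding start 65914 bp into the gene (promoter 3) had 3.40 and 2.02, so the internal CpG-poor site was the stronger of the 2 sites in replicate 2 and slightly the weaker in replicate 1. Its order in the gene therefore differed between libraries.

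Camk2d (chr3:126596302-126846326) had 2 neighbouring open promoters, and 10 others, all over 180 kb into the gene, were closed in both libraries. The noncoding 5′-most start with the CRE shown above had 5.71 in replicate 1 and 2.59 in replicate 2. The main promoter 649 bp further on, where 9 protein-coding transcripts start, had 5.22 and 1.34. The CRE-bearing peak was the higher in both libraries. The closed promoters include those of the short 160- and 168-residue forms.

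Camk2g (chr14:20734875-20794088) had a 5′ promoter with 3.47 in replicate 1 and 1.02 in replicate 2. Its strongest peak in replicate 1, with 6.71, lay 492 bp from an internal start 28579 bp into the gene, that of a retained-intron transcript joined here with the start of a 224-residue form. Replicate 2 had a peak at nearly the same place with 2.32, 512 bp from the start and so just outside the 500-bp window. The site thus had a peak in both libraries, although by the 500-bp rule the promoter counted as open in replicate 1 only.

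Camk4 (chr18:32934931-33191228) had the lowest value of the 9 genes in both libraries when each gene is taken at its strongest promoter. Its promoter 3, the start of the full 469-residue CaMKIV, had 2.12 in replicate 1 and 0.710 in replicate 2, at the 23.0 and 15.8 percentiles. The peak was broad, with 11 footprints in replicate 1 and 9 in replicate 2. The 5′-most annotated start, of transcripts marked for nonsense-mediated decay, had no peak. Promoter 2, the start of a 67-residue form, had a weak peak in replicate 2 only, with 0.387. That peak also lies within 500 bp of the promoter 3 start, so it counts for both. Bases with an FDR under 0.05 covered 40.3% of the promoter 2 window in replicate 1 and 12.6% in replicate 2. The window was thus not closed in replicate 1, although no peak was called there.

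The upstream kinases differed from each other. Camkk1 (chr11:73019008-73042073) had 11.2 in replicate 1 and 4.21 in replicate 2, at the 80.0 and 72.0 percentiles. Camkk2 (chr5:122731170-122779409) had 5.14 and 1.47, at the 46.6 and 32.2 percentiles. The Camkk1 promoter was the higher in both libraries, and the internal protein-coding starts of both genes were closed. A Camkk2 transcript marked for nonsense-mediated decay, 15544 bp into the gene, had a weak peak in replicate 1 only, with 1.07.

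Prkca (chr11:107933387-108343928) had the strongest promoter of the 9, at the start of the 672-residue protein kinase C alpha. Its peak had 11.6 in replicate 1 and 4.48 in replicate 2, at the 81.8 and 74.6 percentiles. An internal protein-coding start 364289 bp into the gene, for a 248-residue form, was closed in both libraries. Camkk1 and Prkca were next to each other in rank and differed by less than the libraries did.

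At Prkcz (chr4:155260129-155361361) the internal promoter was more open than the 5′ promoter in both libraries. The 5′ promoter, which starts the 592-residue protein kinase C zeta, had 1.39 in replicate 1 and 0.606 in replicate 2. The internal promoter, 15589 bp further on, starts a 409-residue form and had 4.16 and 1.76. The CpG content had the opposite order, 0.887 at the 5′ promoter and 0.451 at the internal one, over unlike windows of 1022 and 2033 bp. Another open promoter, at a noncoding start 93026 bp into the gene, had 3.18 and 1.28.

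**Figure D2:**
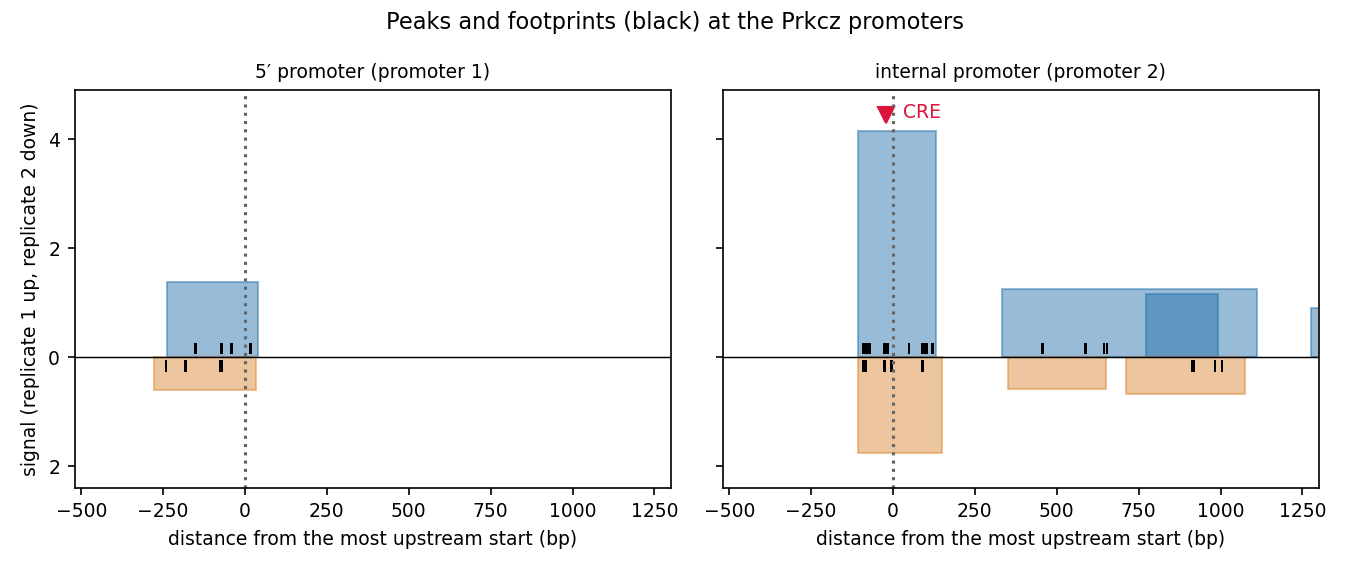
Peaks at the 5′ and internal promoters of Prkcz, as boxes over their extent (x axis, bp from the most upstream start, negative upstream) with the signal as height (replicate 1 up, replicate 2 down), footprints as black bars and the CRE as a triangle. The internal peak reaches 4.16 and 1.76, the 5′ peak 1.39 and 0.606.

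**Figure D3:**
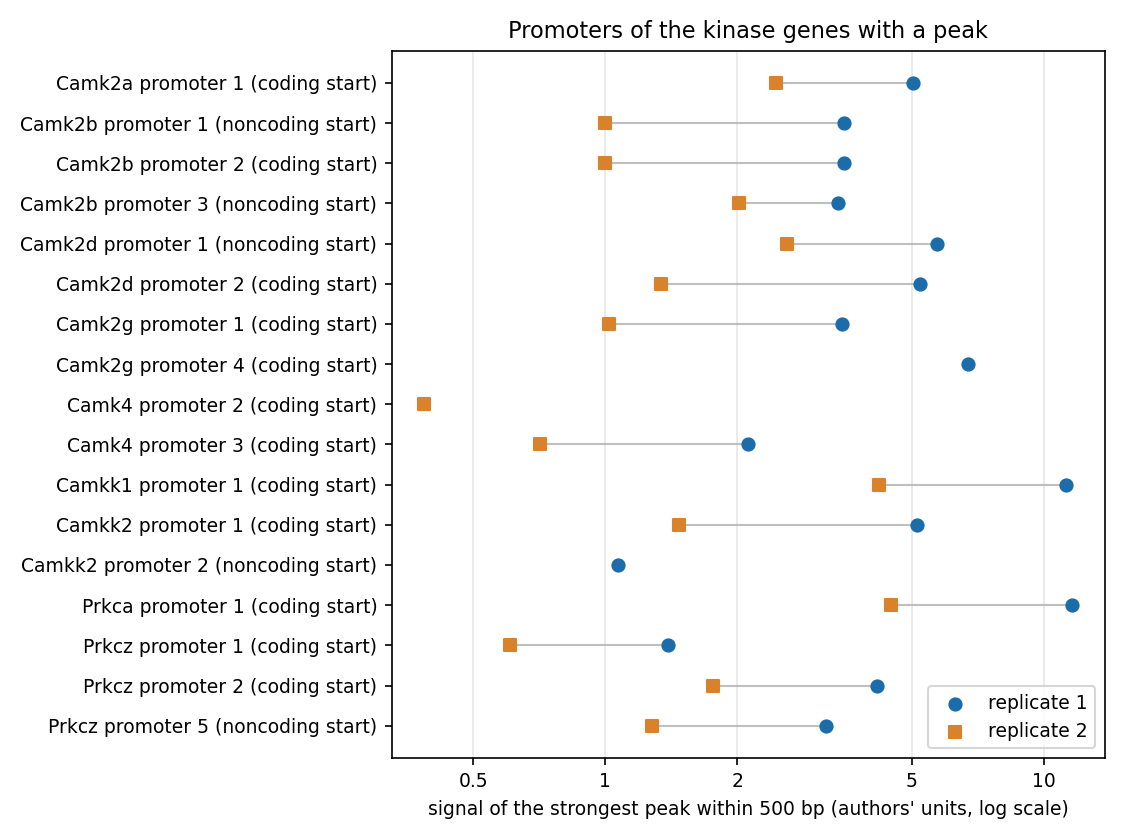
Signal of the strongest peak within 500 bp (log axis, authors' units) at each of the 17 alternative promoters with a peak in at least 1 library, marked coding where a protein-coding transcript starts; circles are replicate 1, squares replicate 2, and lines join the libraries. Prkca and Camkk1 are highest in replicate 2 at 4.48 and 4.21, and replicate 1 is above replicate 2 at all 14 promoters open in both.

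Replicate 1 had the higher signal at every promoter open in both libraries. The ratio of the strongest promoter signal, replicate 1 over replicate 2, had a median of 2.59 over the members, from 1.73 at Camk2b to 6.57 at Camk2g, and 2.40 over all genes with a peak in both. Both extremes set different promoters against each other: at Camk2g the window-edge peak of replicate 1 against the 5′ peak of replicate 2, and at Camk2b promoter 2 against promoter 3. Within a promoter the Camk2b ratios were 3.49 at promoter 2 and 1.68 at promoter 3. Over shared peaks of the whole series the median ratio was 2.32 at promoters and 1.38 at distal sites, so signal differences between a promoter and a distal site depend on the library.

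The 9 loci held 111 distal peaks in replicate 1 and 146 in replicate 2. The median member had 11 and 13, against 2 and 3 over all protein-coding genes. Long genes have more room for such peaks, and per 10 kb the medians were 0.779 and 0.888 for the members and 0.250 and 0.437 for all. Against the median of genes in the same decile of length, 8 of 9 members had more in replicate 1 and 9 of 9 in replicate 2. The exception was Camk2d in replicate 1, with 7 against 8. Per 10 kb Camk2d had 0.241 in replicate 1, just under the median of all genes, and 0.655 in replicate 2. The longest decile runs from 109898 to 4434882 bp, so its median matches the length of a given gene only loosely. The members' loci were thus rich in distal peaks as a group, most of which lay in introns: 70 in replicate 1 and 99 in replicate 2.

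Peaks of the other library overlapped 77 of the 111 distal peaks of replicate 1 (69.4%, background 68.9%) and 76 of the 146 of replicate 2 (52.1%, background 42.7%). At least 1 footprint lay in 103 of the replicate 1 peaks (92.8%, background 75.7%) and in 122 of those of replicate 2 (83.6%, background 78.9%). The members' distal peaks were also stronger than distal peaks in general. The median member peak reached 1.08 in replicate 1 and 0.712 in replicate 2, against 0.676 and 0.438 over all distal peaks. The part of signal in the shares above was not tested. Counted per peak, there were 292 footprints in replicate 1 and 308 in replicate 2, of which 118 and 117 overlapped a footprint of the other library. Within peaks found in both libraries, 118 of 240 footprints of replicate 1 (49.2%) and 116 of 216 of replicate 2 (53.7%) overlapped a footprint of the other library. The overlap of footprints was not measured over all distal peaks, so these counts have no background and cannot be called high or low.

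**Figure D4:**
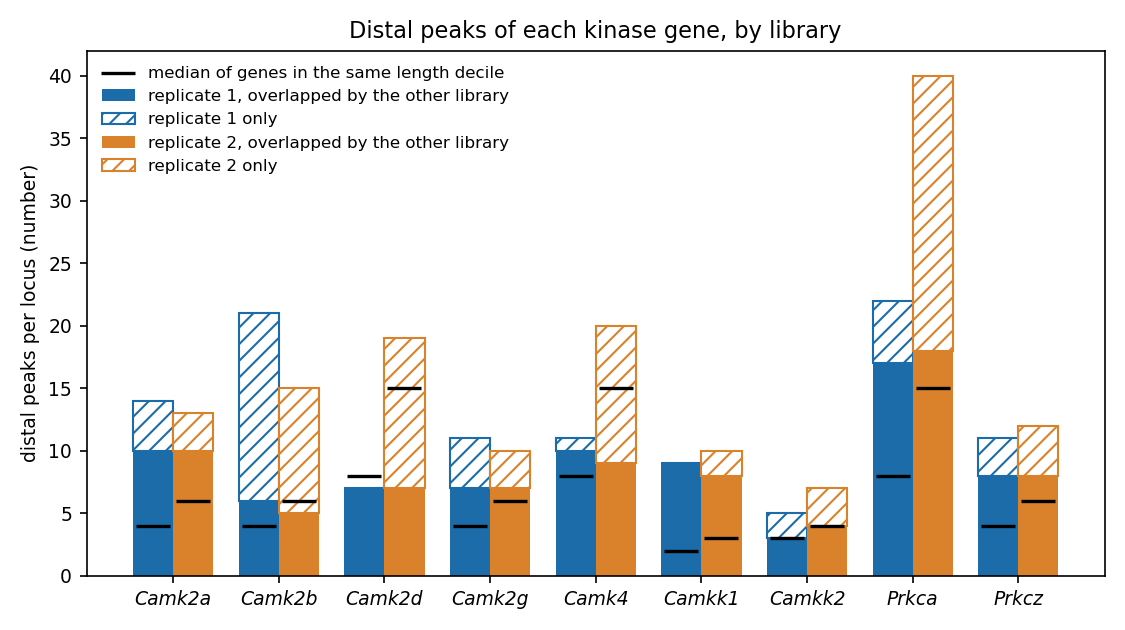
Number of distal peaks per locus (y axis) for each gene and library; filled parts are overlapped by a peak of the other library, hatched parts are not, and black bars give the median of genes in the same length decile. Prkca reaches 22 and 40, and Camk2d in replicate 1 (7) is the bar below its decile's median (8).

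Camk2a had 14 distal peaks in replicate 1 and 13 in replicate 2, 10 of them shared in each. Its top-ranked peak lay in an intron 52912 bp from the 5′ end, with 6.57 in replicate 1 and 2.46 in replicate 2, at or above the 98.3 percentile of distal peaks in both. It held a CTCF match. A pair of intron peaks nearer the promoter followed, 8872 bp in with 3.85 and 2.00 and 7142 bp in with 3.58 and 2.59, the highest value at Camk2a in replicate 2. Camk2a thus had a cluster of shared open sites in its first 10 kb and a site with a CTCF match near its 3′ part.

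Camk2b had 21 distal peaks in replicate 1 and 15 in replicate 2, of which 6 and 5 were shared. Over the whole locus this was the lowest shared fraction of the 9 in both libraries, 28.6% and 33.3%. Of the Camk2b peaks, 7 in replicate 1 and 4 in replicate 2 lie in the neighbouring gene Ykt6. The gene body alone held 13 and 9, and there the shared fraction in replicate 2 was above that of Camk2d. The unshared peaks had a median signal of 0.570 in replicate 1 and 0.652 in replicate 2, against 0.410 and 0.340 over all unshared distal peaks. Its leading shared peak, the printed intron sequence 35472 bp from the 5′ end, had 4.83 in replicate 1 and 2.09 in replicate 2. A CTCF-matching intron peak followed with 4.26 and 1.79, and another intron peak with 2.48 and 1.17.

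Camk2d had 7 distal peaks in replicate 1, all shared, and 19 in replicate 2. The printed intron peak, 168648 bp from the 5′ end, had 2.29 in replicate 1 and 1.34 in replicate 2. The next, over an exon, had 2.17 and 1.21, and the third had 1.66 and 1.81. In replicate 1 no Camk2d distal peak reached the strength of the leading Camk2a and Camk2b peaks. Its strongest replicate 2 peak without an overlap had 1.78 and lay 21 bp from a replicate 1 peak.

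Camk2g had 11 and 10 distal peaks, 7 shared in each library. The strongest was the printed CTCF-matching peak 4872 bp upstream, with 5.30 in replicate 1 and 1.87 in replicate 2. The second, with 3.27 and 1.34, overlaps the neighbouring gene Ndst2. The third, 11422 bp upstream, had 2.48 and 1.40. These top-ranked distal peaks thus lay outside the gene body. The site near an internal start described above was stronger, with 6.71 in replicate 1 and 2.32 in replicate 2. That site is inside the gene and within 1 kb of a start, so it was not counted as distal.

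Camk4 had 11 distal peaks in replicate 1 and 20 in replicate 2. Its leading pair lay about 20 kb into the gene, 20829 bp in with 1.90 in replicate 1 and 2.26 in replicate 2, and 20199 bp in with 1.47 and 1.41. Another intron peak, 102039 bp in, had 1.39 and 1.33. At Camk4 the leading distal peak was stronger than the promoter in replicate 2 (2.26 against 0.710) and close to it in replicate 1 (1.90 against 2.12). With footprints widened by 5 bp, those of the leading peak held the symmetric E-box in both libraries. Those of the other 2 peaks held the E-box CAGATG that NeuroD factors bind.

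Camkk1 had 9 distal peaks in replicate 1, all shared, and 10 in replicate 2, of which 8 were. A pair of the replicate 1 peaks overlapped each other and the same replicate 2 peak. The leading peak, printed above, had 3.67 in replicate 1 and 1.73 in replicate 2 and lies in the neighbouring gene Ncbp3. Next came a peak over a Camkk1 exon with 3.11 and 2.37, and an intron peak with 2.37 and 1.80. Camkk2 had the fewest, 5 and 7. Its leading peak had 1.69 and 0.704 and lies in the untranslated part of an exon, and the printed intron peak had 0.973 and 0.548. The third, with 0.60 and 1.62, lies in P2rx4. Many Camkk1 peaks lie in other genes, 7 of 9 in replicate 1 and 6 of 10 in replicate 2. Within the gene body alone Camkk1 had 2 and 4 distal peaks and Camkk2 had 4 and 3.

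Prkca, the longest of the 9 genes at 410542 bp, had the most distal peaks, 22 in replicate 1 and 40 in replicate 2. In the authors' stricter lists it had 9 and 20, and in replicate 1 that was below Camk2b (13) and Camk2a (12). The printed intron peak, 320528 bp from the 5′ end, had 5.27 in replicate 1 and 3.16 in replicate 2, at the 97.8 and 99.3 percentiles. Intron peaks 193358 and 378368 bp in followed, with 3.59 and 1.83, and with 3.04 and 2.49. The leading sites thus lay far from the promoter.

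Prkcz had 11 and 12 distal peaks, 8 shared in each. The printed downstream peak had 4.54 in replicate 1 and 2.34 in replicate 2. A CTCF-matching intron peak 53061 bp in had 5.08 and 1.89. A peak 7519 bp upstream of the gene had 4.89 and 1.56. All 3 exceeded the internal promoter of Prkcz in replicate 1 (4.16), and the first 2 also in replicate 2 (1.76).

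**Figure D5:**
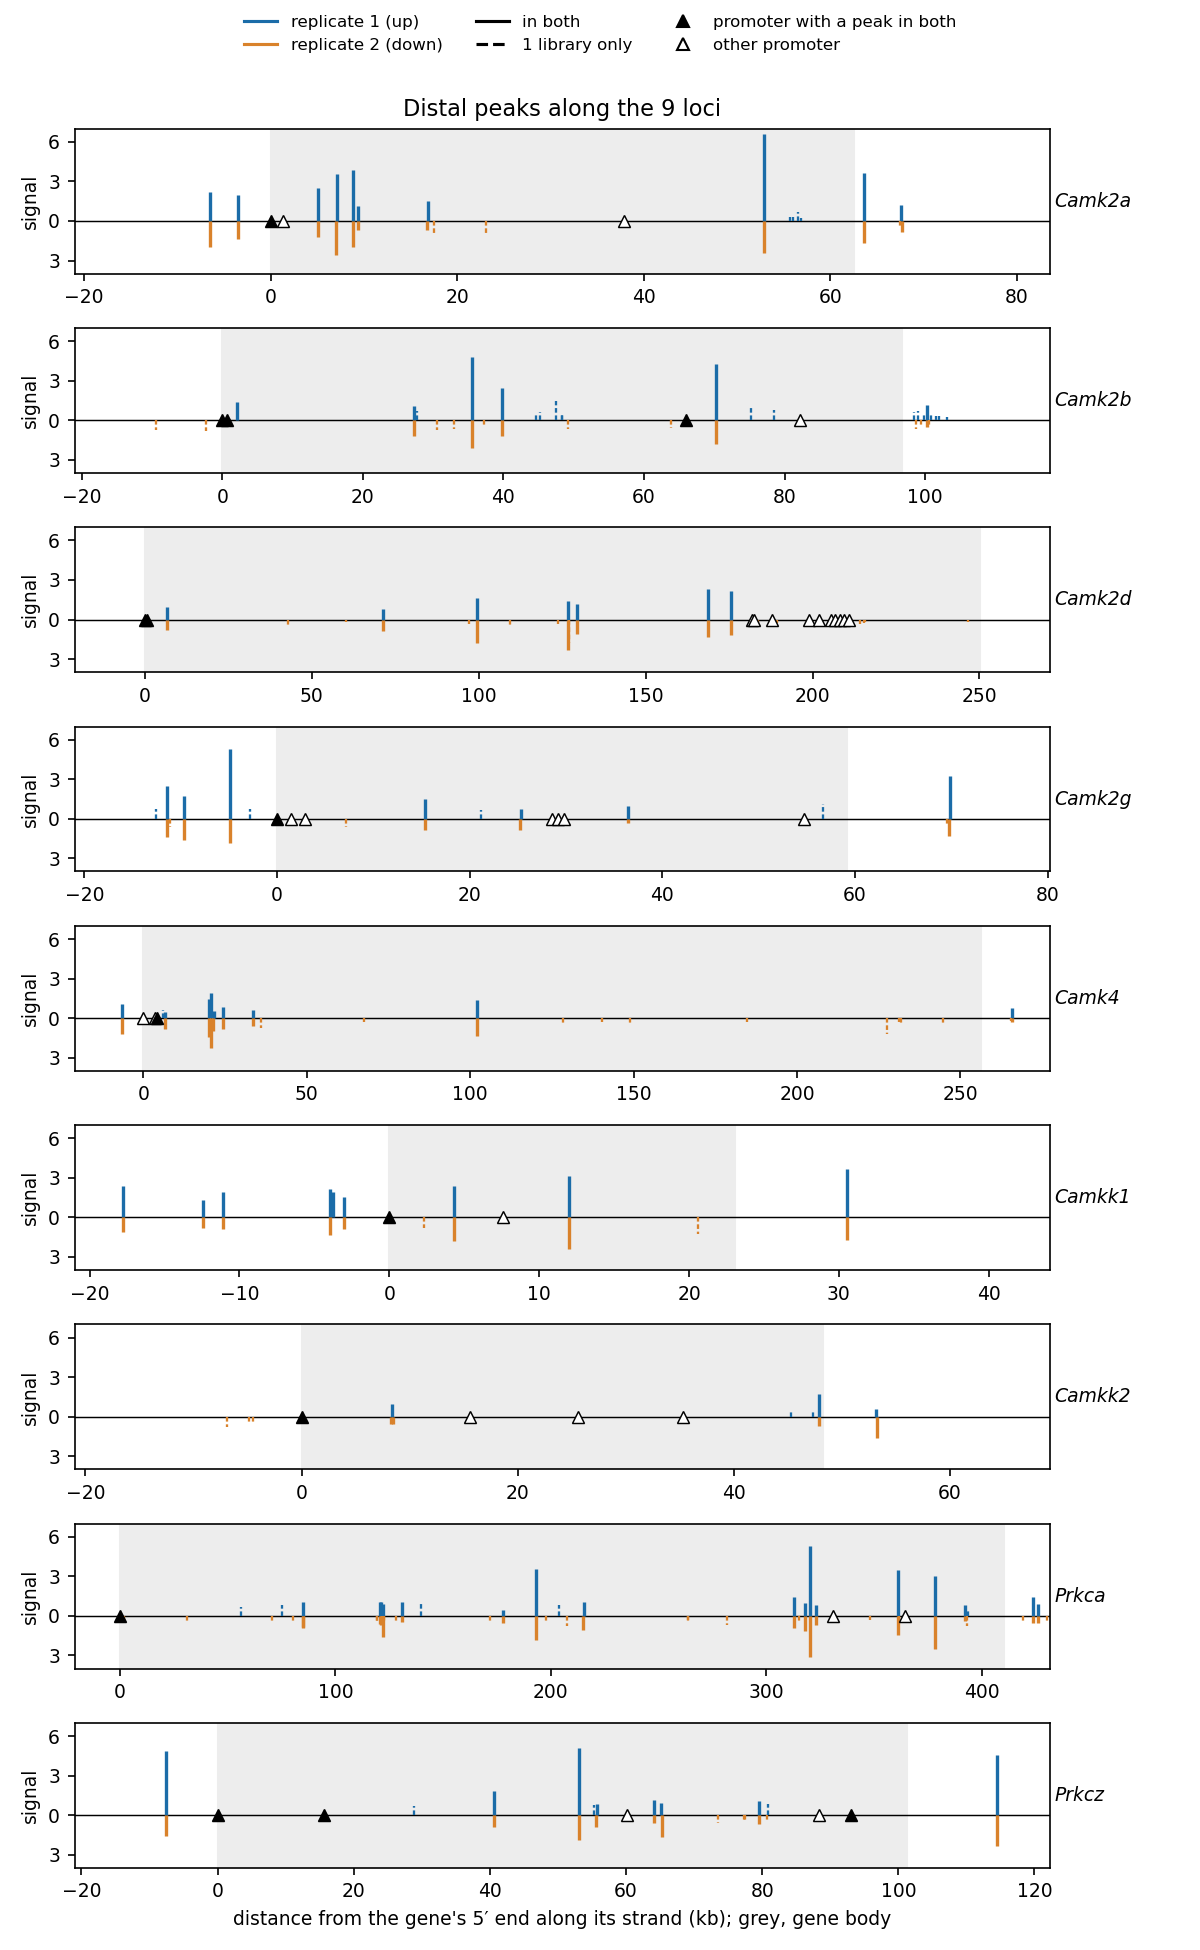
Distal peaks along each locus, by distance from the gene's 5′ end (x axis, kb; grey, gene body) and signal (replicate 1 up, replicate 2 down); dashed lines are peaks in 1 library only, filled triangles promoters open in both libraries and open triangles other promoters. The tallest line is the Camk2a peak at 6.57, and Prkca has its tallest at 5.27, over 300 kb from its 5′ end.

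Of the peaks found in 1 library only, the highest by percentile within its library was in replicate 1 at Camk2b (1.47) and Camk2g (1.12) and in replicate 2 at the other 7 genes. The latter had 1.78 at Camk2d, 1.29 at Camkk1, 1.19 at Camk4, 0.929 at Camk2a, 0.825 at Camkk2, 0.767 at Prkca and 0.594 at Prkcz. By signal alone, the strongest replicate 1 peak without an overlap was higher at Prkca (0.874) and Prkcz (0.828), and signal is not on a common scale between libraries. In the library where they were found, the peaks of Camk2d and Camkk2 exceeded the top-ranked shared peak of the gene (1.34 and 0.704), and those of the other 7 genes were below it. The peaks of Camk2d and Camkk2 were still below the strongest shared peak of their gene in replicate 2. That peak had 2.35 at Camk2d and 1.62 at Camkk2 and was ranked lower by the smaller percentile.

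At the 3 longest members replicate 2 had more distal peaks than replicate 1, as it had over long genes in general. Replicate 2 had 2.71 times as many distal peaks as replicate 1 at Camk2d and 1.82 times at both Camk4 and Prkca, against 1.70 times over all genes of the longest decile. Camk4 and Prkca were thus near the value of all such genes, and Camk2d was above it. At Camk2b the ratio was 0.714, against 1.41 in its decile. When replicate 2 was limited to as many peaks as replicate 1, chosen by signal, Camk2d had 7 and 10, Camk4 11 and 14 and Prkca 22 and 38, while Camk2b stayed at 21 and 15. The 3 longest loci were also the poorest in G and C, with 40.2% at Camk2d, 40.5% at Camk4 and 45.5% at Prkca, against 48.6% to 51.1% at the others. The 45 peaks of these 3 genes in replicate 2 only had a median GC of 45.5% and a median signal of 0.421. Over the whole series, distal peaks in replicate 2 only had a median GC of 44.3% and those in replicate 1 only 55.4%. The part of base composition or depth in these differences was not tested.

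Footprints widened by 5 bp were searched for 16 consensus sequences. Matches to CTCF were found at 9 distal sites of 5 members, 7 of them in footprints of both libraries. The 6 of those 9 sites that lie at Camk2b, Camk2g and Camkk1, and that of Prkcz, are shown with 10 bases on either side and the consensus in capitals, on the strand of the match, so that their common core can be compared.
Camk2b, both libraries, consensus at chr11:5996138-5996149, plus strand: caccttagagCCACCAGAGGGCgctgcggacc
Camk2b, replicate 1 only, consensus at chr11:5991106-5991117, plus strand: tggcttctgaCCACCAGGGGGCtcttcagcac
Camk2g, both libraries, consensus at chr14:20798975-20798986, minus strand: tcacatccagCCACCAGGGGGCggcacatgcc
Camkk1 upstream, both libraries, consensus at chr11:73007898-73007909, plus strand: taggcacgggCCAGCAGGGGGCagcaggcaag
Camkk1 downstream, both libraries, consensus at chr11:73049529-73049540, minus strand: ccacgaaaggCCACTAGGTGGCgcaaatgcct
Camkk1 intron, replicate 2 only, consensus at chr11:73039606-73039617, minus strand: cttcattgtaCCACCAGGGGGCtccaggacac
Prkcz, both libraries, consensus at chr4:155308303-155308314, minus strand: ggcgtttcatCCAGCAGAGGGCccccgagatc

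CTCF matches stood in 2.79% of the members' distal footprints in replicate 1 and 2.65% in replicate 2, against 2.45% and 2.06% of all distal footprints. The symmetric E-box stood in 5.23% and 4.64%, against 3.52% and 2.84%. The E-box CAGATG stood in 5.23% and 5.63%, against 4.47% and 5.99%, which was above the background in replicate 1 and below it in replicate 2. These shares rest on 8 CTCF matches in each library, 15 and 14 symmetric E-boxes, and 15 and 17 CAGATG, among 287 and 302 distinct footprints. At promoters, the GC box GGGCGG of SP and KLF factors stood in 18.2% and 13.3% of the members' footprints, against 14.2% and 14.0%. No full CRE stood in a distal footprint of the members in either library, and over all distal footprints the share was 0.0867% in replicate 1 and 0.0712% in replicate 2.

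The other genes of the pathway, a list of 39, had a promoter peak in both libraries in 38 cases (97.4%, background 63.2%). The exception was Camk1g, a CaMKI gene, with 1.36 in replicate 2 and no peak in replicate 1. All 5 genes of calmodulin and its buffers, all 7 other protein kinase C genes, all 6 calcineurin and phosphatase genes, all 6 CREB-related targets and cofactors and all 8 other plasticity kinases were open in both libraries. The median strongest promoter signal of the list was 8.41 in replicate 1 and 2.64 in replicate 2, above the members' 5.14 and 2.02. By mean number of distal peaks, Prkce, a calcium-independent protein kinase C, led with 45 and 57. Fyn, a tyrosine kinase that phosphorylates NMDA receptors, had 44 and 17, and Camk1d had 21 and 38. Of the members, only Prkca, with 22 and 40, reached this level.

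The label of hippocampal tissue was set against marker genes of cell types it could hold. A promoter peak in both libraries was found at 8 of 8 markers of excitatory hippocampal neurons and 4 of 4 of astrocytes. It was found at 2 of 5 of inhibitory neurons, 2 of 4 of microglia, 1 of 4 of vessels and 1 of 3 of ependyma and choroid plexus. Over all protein-coding genes the share was 63.2%, and groups this small cannot be told apart from it closely. Gad2, Slc32a1, Sst and Flt1 had a peak in replicate 1 only, and P2ry12 and Tek in replicate 2 only. Ttr, Folr1, Itgam and Cldn5 had none in either library. The kinase peaks were not assigned to a cell type, and the part of each was not tested. The longer list of replicate 1 had 115699 peaks and that of replicate 2 had 167829, and the depth in reads is unknown.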

How the data were processed

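DNase-seq peaks, footprints and FDR runs of 2 libraries were used, on mm10 per the labels. For aligner, peak caller and footprint caller: not given in the sources used here. Each library has 2 deposited peak lists, called per library, with the authors' signal per peak. The longer list was used. The deposited FDR files give a q-value per run of bases and list only values under 0.05. The authors' footprint files hold the same value in the score column of every row, so footprints were not ranked.

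Starts came from GENCODE M21, and sequences from RefSeq GRCm38.p6, the same assembly as mm10. Starts within 500 bp of each other formed 1 promoter. Peaks in a locus (gene and 20 kb either side) were promoter peaks within 500 bp of a start and distal peaks over 1 kb from every start. The 7 peaks in replicate 1 and 11 in replicate 2 between these limits were left out of both counts. An overlap of 1 bp or more made a peak shared between libraries. Peaks of a list that overlapped each other were counted separately, so a site can count more than once. Among distal peaks this was so at Camk2b and Camkk1 in replicate 1 and at Camkk2 and Prkca in replicate 2. Percentiles are within a library, over distal peaks or over genes with a promoter peak. Scripts ran in Python with pandas and pysam and were tested on simulated data.

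With 1 group of 2 libraries no comparison of conditions and no test was possible. All values are descriptions beside the same measure over all genes or peaks. The text names all 9 members, every member's 3 distal peaks with the highest smaller percentile over both libraries, its strongest peak found in 1 library only, pathway genes without a promoter peak in both libraries and the 3 with the most distal peaks. The members and lists were chosen with earlier results of these data known.

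Markers of the oligodendrocyte lineage are not reported here.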

Additional observations from a re-analysis of the deposited data

How the results depend on the processing

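Other settings left the promoter result in place: 9 of 9 members had a promoter peak under each of the 7 alternatives, and 14 alternative promoters open in both libraries became 10 to 18. Leaving out a library gave 15 and 16. The number of distal peaks, 128 as the mean of both libraries, fell to 79.0 in the authors' stricter lists and ranged from 111 to 146 with 1 library left out. The share of distal footprints with any of the 16 consensus sequences was 21.2%, and 13.7% when footprints were not widened and 25.8% when they were widened by 10 bp. The share of the loci's bases at FDR under 0.05 was 3.41%, and 2.66% at FDR under 0.01. Of 39 alternatives of the main results 35 stayed within the limits set, and of 96 for single genes or sequences 81 did. For promoter signal these limits were wide. The strongest promoter signal of Camk2g, as the mean of both libraries, fell from 3.87 to 2.25 with a narrower promoter window. It still counted as within the limits, and its standard deviation between libraries was 4.02. The tally therefore cannot show that promoter signal is steady across settings. No paired analysis was possible because there is only 1 group. The signal's scaling is not stated, so the depth behind a peak is unknown, and a promoter without a peak is one where none was called at this depth.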
